A study of Homo sapiens with 8 samples.

Results

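The nuclear pore and its mRNA export route were followed through 32 listed genes, which encode the structural proteins of the pore (nucleoporins) and the export receptor pair NXF1 and NXT1. The members were the probes whose gene symbol in the array annotation was on this list. Of the 32 genes, 30 had a probe, with 42 probes in all, and 26 were tested among the 9377 genes and unnamed probes tested on these arrays. SEC13 and NXF1 had no probe in the annotation used here and are not analysed here. NUP43, NUP54, POM121 and RANBP2 had a probe that was detected on fewer than 2 arrays, so no change was estimated for them.

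The arrays came from SK-OV-3 and from TOV-21G, which are established human ovarian carcinoma lines. Each line had been transfected with a scrambled control siRNA or with an siRNA against CSE1L, the export receptor that carries importin alpha back from the nucleus to the cytoplasm. Total RNA was taken 72 h after transfection, and each of the 4 groups had 2 arrays, numbered as experiment 1 and experiment 2. Controls and silenced cells of a line differ, per the labels, only in the siRNA, and the sources used here give neither its sequence nor whether 1 or several were used. They do not say whether the experiments were separate cultures, so every p-value below measures only the spread between these arrays, which may be technical.

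The nuclear pore is a large ring of many copies of each nucleoporin that spans the nuclear envelope and controls traffic in both directions. Scaffold subcomplexes, the Y complex and the inner ring, hold it in the membrane; nucleoporins with flexible repeats of phenylalanine and glycine fill the channel and bind transport receptors. Messenger RNA leaves through the pore bound to NXF1 and NXT1, with RAE1 and NUP98 as docking partners, whereas importins and exportins such as CSE1L take their direction from the GTPase Ran. In human cells the pores come apart at the start of mitosis and are rebuilt in each daughter nucleus.

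On log2 normalized intensity, CSE1L measured 13.02 and 11.65 in TOV-21G control cells and 8.80 and 7.72 after silencing. It measured 12.04 and 12.56 in SK-OV-3 control cells and 10.51 and 8.99 after silencing. In both lines the silenced arrays lay below both controls. The fall of CSE1L passed the test in TOV-21G (log2 change -4.08, SE 0.63, n = 2 arrays per group, limma adjusted p = 0.0257) and did not in SK-OV-3 (-2.55, SE 0.63, limma adjusted p = 0.262). All adjusted p-values are limma's, with the Benjamini-Hochberg method over the 9377 tested, at a threshold of 0.05. The TOV-21G call of CSE1L was lost when TOV-21G control replicate 1, control replicate 2 or silenced replicate 2 was left out. Its changes were then -3.42, -4.75 and -3.52. Such fits have fewer arrays to estimate the spread, so a lost call does not single out the array left out. With control replicate 1 or silenced replicate 2 left out, 0% of genes were called in TOV-21G. The 4 TOV-21G arrays fitted alone also called 0% of genes, with a limma adjusted p of 0.0968 for CSE1L, so every TOV-21G call given here for a fit without a replicate block was lost.

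Each array detected 9206 to 9820 of 24531 probes, and replicate arrays correlated across genes at 0.972 to 0.982. ERBB2, the receptor gene amplified in SK-OV-3, measured 14.99 to 15.65 in SK-OV-3 and 11.36 to 11.76 in TOV-21G. The epithelial keratins KRT7, KRT8 and KRT18 were detected on all 8 arrays, KRT19 on 4 SK-OV-3 and 2 TOV-21G arrays, CDH1 on the 2 TOV-21G control arrays, and EPCAM on 0. Of 8 markers of other cell types, PTPRC, CD3E, PECAM1, VWF and COL3A1 were undetected, COL1A1 was detected on all 8 arrays, DCN on the 4 TOV-21G arrays and CD14 on 2 SK-OV-3 and 3 TOV-21G arrays.

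NUP210, NUP35, NUP155 and NUP85 had the largest silencing changes among the members in TOV-21G, and their promoters, chosen after these values were seen, are given so that the motifs in them can be read. They come from RefSeq on GRCh38.p14 and run 5′ to 3′ from 250 bases before to 50 after the annotated start. A promoter was found in that table for 30 of the 32 listed genes. The promoter of NUP35 lies at chr2:183124193-183124492 on the plus strand, that of NUP155 at chr5:37371057-37371356 on the minus strand, that of NUP85 at chr17:75205429-75205728 on the plus strand, and that of NUP210 at chr3:13420273-13420572 on the minus strand. Capitals mark matches on either strand to 6 motifs: the CCAAT box (CCAAT), the GC box (GGGCGG), an ETS site (CCGGAAGT), the core of an NRF1 site (GCATGCGC), an E2F site (TTTGGCGC, TTTCGCGC or TTTCCCGC) and the cell cycle genes homology region, CHR (TTTGAA).
NUP35: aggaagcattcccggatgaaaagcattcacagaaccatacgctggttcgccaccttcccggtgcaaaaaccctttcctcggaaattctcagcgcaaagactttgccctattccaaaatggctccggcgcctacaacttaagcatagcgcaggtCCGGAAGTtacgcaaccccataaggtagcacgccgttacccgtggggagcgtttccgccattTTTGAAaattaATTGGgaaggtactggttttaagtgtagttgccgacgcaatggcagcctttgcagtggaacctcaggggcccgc
NUP155: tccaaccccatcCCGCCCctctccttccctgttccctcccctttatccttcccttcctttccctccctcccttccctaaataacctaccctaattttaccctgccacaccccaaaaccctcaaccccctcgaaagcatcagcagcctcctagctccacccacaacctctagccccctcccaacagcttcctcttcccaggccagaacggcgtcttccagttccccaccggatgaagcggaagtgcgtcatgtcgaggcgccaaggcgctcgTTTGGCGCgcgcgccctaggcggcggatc
NUP85: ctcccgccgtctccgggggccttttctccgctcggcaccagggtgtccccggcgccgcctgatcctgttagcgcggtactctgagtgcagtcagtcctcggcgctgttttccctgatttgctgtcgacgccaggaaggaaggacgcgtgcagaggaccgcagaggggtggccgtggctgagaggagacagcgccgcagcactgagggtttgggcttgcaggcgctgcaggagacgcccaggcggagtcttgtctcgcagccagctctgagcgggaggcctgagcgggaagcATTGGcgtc
NUP210: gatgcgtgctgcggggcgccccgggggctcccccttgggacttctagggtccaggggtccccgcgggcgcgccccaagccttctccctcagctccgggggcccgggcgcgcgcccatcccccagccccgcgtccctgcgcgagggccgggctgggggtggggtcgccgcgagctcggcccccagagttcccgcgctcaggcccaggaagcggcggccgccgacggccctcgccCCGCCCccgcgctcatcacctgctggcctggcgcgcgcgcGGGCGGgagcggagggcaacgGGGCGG
Positions are counted from the annotated start, whose base is 0. NUP35 held an ETS site at -97, a CHR at -35 and a reverse CCAAT box (ATTGG) at -24. NUP155 held a reverse GC box (CCGCCC) at -238 and an E2F site at 21, and NUP85 a reverse CCAAT box at 41. NUP210 held GC boxes at -17, 23 and 44. No marked matches overlapped in these windows.

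Motif shares are given over the 38 promoters of the 30 matched genes, beside all 35116 promoters in the table, and over the 31 promoters of tested members, beside the 10208 promoters of all tested genes. The ETS letters were in 18.4% of the member promoters, against 4.14%, and in 9.68% of those of tested members, against 7.51%. For the CHR letters the shares were 26.3% against 15.2%, and 32.3% against 9.96%. Promoters of the same gene count separately here. The 10 member promoters with CHR letters came from 8 genes, and the 7 with ETS letters from 6. The NRF1 letters were in 7.89% against 3.05%, and in 9.68% against 4.91%. The CCAAT box was in 39.5% against 34.6%, and in 48.4% against 35.3%. The GC box was in 50% against 45%, and in 48.4% against 67.2%. The E2F letters were in 1 member promoter, that of NUP155 (2.63% against 2.74%, and 3.23% against 4.22%). These shares describe letters in a window and were not set against the changes.

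After CSE1L silencing most tested members lay lower in TOV-21G, and the median shift in SK-OV-3 was smaller. Without a replicate block, no member passed the test in either line. In TOV-21G their median log2 change was -0.43, beside 0 over all genes tested; 21 of 26 changes were below 0, against 49.5% of all genes, and the range was -1.38 to 0.34. On 17 of 26 members both silenced arrays lay below both control arrays, where 24.8% of all genes did so, and 0 of 26 lay above both, where 24.1% did. No member passed limma's adjusted threshold, against 3.17% of all genes, whereas with experiment number as a replicate block 2 members passed, NUP155 and NUP35, against 6.29% of all genes. Without the block, 8 had an unadjusted p under 0.05 in the lower direction, against 10.5% of all genes, with 0 in the higher direction, against 9.36%. The smallest log2 change among the genes called in TOV-21G without the block was 0.93 in size.

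In SK-OV-3 the median was -0.16, beside -0.01 over all genes; 17 of 26 changes were below 0, against 51% of all genes, and the range was -0.80 to 0.27. Both silenced arrays lay below both controls for 10 members, where 21.2% of genes did, and above both for 2, NUP160 and SEH1L, where 21.1% did. No member was called by limma, with or without the replicate block, and 0.0107% of all genes were without it; 1 had an unadjusted p under 0.05 in the lower direction, against 4.94%. NUP210, undetected on every SK-OV-3 array, enters these counts, and those of the mean and the difference below, with values not well above background. Leaving out each SK-OV-3 array in turn gave a median of -0.11 without control replicate 1, -0.28 without control replicate 2, -0.10 without silenced replicate 1 and -0.11 without silenced replicate 2.

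**Figure D1:**
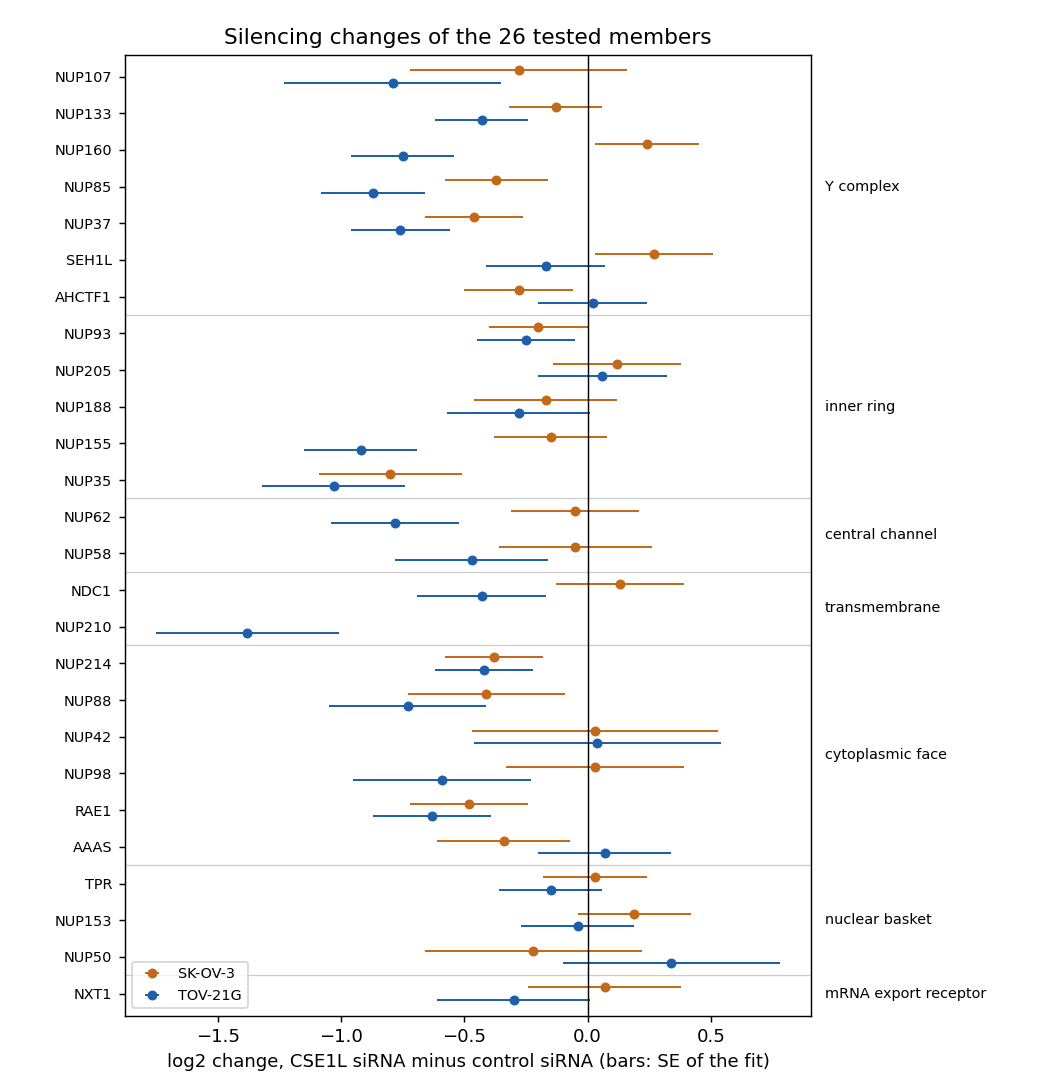
Log2 change after CSE1L silencing (horizontal axis) for the 26 tested members, ordered by subcomplex, with orange points for SK-OV-3, blue points for TOV-21G and bars of 1 SE of the fit (n = 2 arrays per group). Most blue points sit left of 0, with NUP210 lowest at -1.38, and the nuclear basket members TPR, NUP153 and NUP50 have blue points at -0.15, -0.04 and 0.34. No SK-OV-3 point is drawn for NUP210, which was undetected there.

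**Figure D2:**
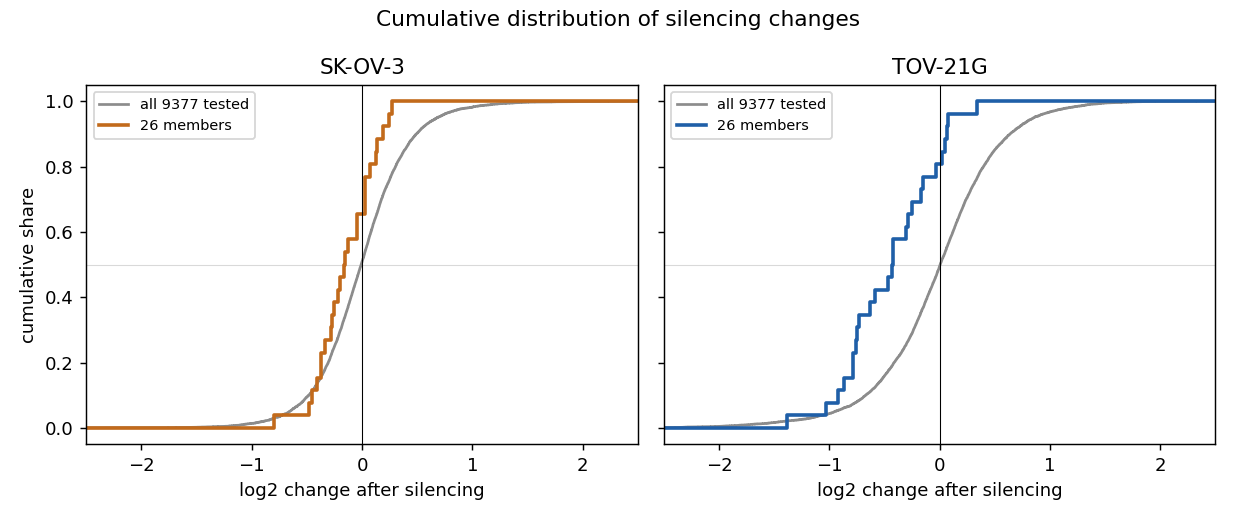
Cumulative share of log2 changes after silencing, with SK-OV-3 on the left and TOV-21G on the right, for the 26 tested members (coloured) and all 9377 tested (grey). The member curve crosses a share of 0.5 at -0.16 in SK-OV-3 and -0.43 in TOV-21G, beside -0.01 and 0 for all genes.

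Cell division markers fell in TOV-21G, and most were below 0 in SK-OV-3 as well. Of 12 listed, 9 were tested. In TOV-21G 8 of them fell by limma's adjusted p, where 3.17% of all genes were called, and their median change was -2.07. In SK-OV-3 their median was -0.22, with 8 of 9 below 0, against 51% of all genes, and 0 called, against 0.0107%. There 5 of 9 lay below both controls, where 21.2% of all genes did. In TOV-21G TOP2A, the topoisomerase that untangles chromosomes in mitosis, changed by -2.44 (SE 0.32, limma adjusted p = 0.0203). Without TOV-21G control replicate 1 the adjusted p of TOP2A was 0.144, without control replicate 2 it was 0.0791, and without silenced replicate 2 it was 0.0748. The summed intensity of the 9 markers was 46931 to 51019 in TOV-21G control cells and 9892 to 14721 after silencing, against 67574 to 75010 and 60322 to 61871 in SK-OV-3. Their part in the members' values was not tested, and fewer dividing cells and less RNA per cell cannot be told apart in bulk RNA. Of 6 epithelial markers, 5 were tested in TOV-21G and 1 was called, where 3.17% of all genes were. It was CDH1, which encodes the adhesion protein E-cadherin. CDH1 had passed the detection filter only through the TOV-21G control arrays, so its lower call after silencing follows largely from the filter. CDH1 measured 7.57 and 7.99 in TOV-21G control cells and was not well above background in silenced cells, at least 2.44-fold lower (measured means 7.78 and 5.96, limma adjusted p = 0.0176). Without TOV-21G silenced replicate 2 its adjusted p was 0.0794, and without either TOV-21G control array it was detected on too few arrays to be tested. The 5 epithelial markers summed to 5060 to 5461 in TOV-21G control and 5456 to 5874 in silenced cells. The part of CDH1 in the members' values was not tested. The 3 tested markers of other cell types (COL1A1, DCN, CD14) summed to 269 to 308 in SK-OV-3 control and 466 to 746 in silenced cells. DCN was undetected on every SK-OV-3 array and CD14 on both SK-OV-3 control arrays, so these sums include background signal. In TOV-21G the sums were 1574 to 2005 in control and 1949 to 2426 in silenced cells. The part of these markers was not tested either.

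The Y complex is the outer scaffold of the pore, built on both faces of the envelope. In TOV-21G its 7 tested members had a median change of -0.75, 6 of 7 were below 0, and for 5 both silenced arrays lay below both controls, where 24.8% of all genes did. In SK-OV-3 the median was -0.28, 5 of 7 were below 0, and 4 lay below both controls, where 21.2% of all genes did. Neither line had a called member, where 3.17% of all genes were called in TOV-21G and 0.0107% in SK-OV-3.

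NUP85, which with SEH1L forms an arm of the Y, measured 12.58 and 12.54 in TOV-21G control cells and 11.58 and 11.79 after silencing. Every silenced array lay below every control array of that line. The change was -0.87 (SE 0.21, 95% interval -1.37 to -0.37, limma adjusted p = 0.0731). In SK-OV-3, NUP85 measured 13.47 and 13.11 in control and 12.95 and 12.88 in silenced cells, again without overlap, for a change of -0.37 (95% interval -0.87 to 0.12, limma adjusted p = 0.624).

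NUP37, a small subunit that binds NUP160, measured 13.19 and 13.28 in TOV-21G control and 12.62 and 12.34 in silenced cells. It measured 13.49 and 13.50 in SK-OV-3 control and 13.10 and 12.98 in silenced cells. The groups did not overlap in either line, and silenced cells were the lower ones in both. Its change was -0.76 in TOV-21G (SE 0.20, 95% interval -1.23 to -0.29, limma adjusted p = 0.0925) and -0.46 in SK-OV-3 (SE 0.20, 95% interval -0.93 to 0.01, limma adjusted p = 0.509).

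NUP160, a large scaffold of the arms, stood on opposite sides of its controls in the 2 lines. In TOV-21G it measured 10.20 and 10.11 in control and 9.55 and 9.26 in silenced cells, a change of -0.75 (SE 0.21, 95% interval -1.24 to -0.26, limma adjusted p = 0.110). SK-OV-3 gave 10.47 and 10.21 in control and 10.55 and 10.61 in silenced cells, a change of 0.24 (95% interval -0.25 to 0.74, limma adjusted p = 0.781). Silenced arrays lay below both controls in TOV-21G and above both in SK-OV-3, a pattern that 2.74% of all genes showed and 3% showed the other way round.

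The stem subunits differed in their spread. NUP107 measured 9.90 and 9.88 in TOV-21G control and 9.25 and 8.96 in silenced cells (change -0.79, limma adjusted p = 0.376). SK-OV-3 gave 9.94 and 11.04 in control cells and 9.67 and 10.75 in silenced cells, so that the experiments stood farther apart than the siRNAs. NUP133 measured 11.72 and 11.81 against 11.36 and 11.31 in TOV-21G (change -0.43, SE 0.19, limma adjusted p = 0.266) and 11.69 and 11.62 against 11.58 and 11.48 in SK-OV-3 (-0.13, limma adjusted p = 0.879). The silenced NUP133 arrays were the lower ones in both lines.

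SEH1L, which also serves in the GATOR2 complex of nutrient sensing, measured 10.86 and 10.95 in TOV-21G control and 10.50 and 10.97 in silenced cells, which overlap. The SK-OV-3 values were 11.73 and 11.86 against 11.89 and 12.24, a change of 0.27 (95% interval -0.28 to 0.83, limma adjusted p = 0.784). AHCTF1 (ELYS), the chromatin-bound subunit that starts pore assembly after mitosis, had changes of 0.02 in TOV-21G (95% interval -0.50 to 0.54) and -0.28 in SK-OV-3 (95% interval -0.80 to 0.24). Only in SK-OV-3 did its silenced arrays, at 11.19 and 11.15, lie below both controls, at 11.54 and 11.37, and the difference between the lines did not pass (0.30, limma adjusted p = 0.814).

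The inner ring lines the pore membrane. Its 5 tested members had a median change of -0.28 in TOV-21G, where 4 of 5 were below 0 and 3 lay below both controls (24.8% of all genes did), and of -0.17 in SK-OV-3, where 4 of 5 were below 0 and 2 lay below both controls (21.2% of all genes did). Without the replicate block no member of the ring was called in either line. Of all genes, 3.17% were called in TOV-21G and 0.0107% in SK-OV-3.

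NUP155, which ties the ring to the membrane, measured 11.78 and 11.69 in TOV-21G control and 10.99 and 10.63 in silenced cells. The silenced arrays stood clear below the controls there. In SK-OV-3 it measured 11.68 and 11.42 in control and 11.53 and 11.27 in silenced cells, which overlap. The change was -0.92 in TOV-21G (SE 0.23, 95% interval -1.45 to -0.39, limma adjusted p = 0.0731) and -0.15 in SK-OV-3 (95% interval -0.68 to 0.38, limma adjusted p = 0.881). With experiment number as a block within each line, NUP155 passed in TOV-21G (limma adjusted p = 0.045, replicate block), as did NUP35 (limma adjusted p = 0.0413), where 6.29% of all genes passed.

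NUP35 (NUP53), a membrane-bending partner of NUP155 and NUP93, measured 9.62 and 8.94 in TOV-21G control and 8.50 and 8.0 in silenced cells. The SK-OV-3 values were 9.47 and 9.44 in control and 8.49 and 8.81 in silenced cells. Silenced arrays lay below both controls in each line. The change was -1.03 in TOV-21G (SE 0.29, 95% interval -1.71 to -0.35, limma adjusted p = 0.110) and -0.80 in SK-OV-3 (SE 0.29, 95% interval -1.48 to -0.12, unadjusted p = 0.0261, limma adjusted p = 0.419), the largest change of a member in that line.

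NUP93, the anchor of the inner ring, measured 12.69 and 12.80 against 12.41 and 12.58 in TOV-21G, and 13.39 and 13.22 against 13.20 and 13 in SK-OV-3. The silenced arrays were lower in each line by a margin smaller than for NUP35, with changes of -0.25 (95% interval -0.72 to 0.22) and -0.20 (95% interval -0.67 to 0.27). The related scaffold proteins NUP205 and NUP188 overlapped between control and silenced cells in both lines, with changes of 0.06 and -0.28 in TOV-21G and 0.12 and -0.17 in SK-OV-3.

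The channel proteins NUP62 and NUP58, which carry phenylalanine and glycine repeats, were both lower in TOV-21G without overlap. NUP62 measured 13.83 and 13.55 in control and 12.99 and 12.83 in silenced TOV-21G cells, a change of -0.78 (SE 0.26, 95% interval -1.37 to -0.19, limma adjusted p = 0.147). NUP58 measured 9.02 and 8.98 against 8.67 and 8.38, a change of -0.47 (limma adjusted p = 0.466). In SK-OV-3 both overlapped: NUP62 measured 13.83 and 13.23 against 13.40 and 13.56, and both genes had a change of -0.05. The partner NUP54 was detected on 1 array, an SK-OV-3 control.

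Of the transmembrane nucleoporins that anchor the pore in the envelope, NUP210 was detected on the 4 TOV-21G arrays and on 0 SK-OV-3 arrays. In TOV-21G it measured 9.36 and 8.68 in control and 7.44 and 7.83 in silenced cells. The silenced arrays lay well below both controls. The change of -1.38 was the largest of any member (SE 0.37, 95% interval -2.24 to -0.53, limma adjusted p = 0.0914). NDC1, which recruits scaffold proteins to the membrane, measured 10.94 and 10.88 against 10.55 and 10.39 in TOV-21G (change -0.43, SE 0.26, limma adjusted p = 0.412). Its SK-OV-3 values of 11.09 and 10.41 in control and 10.96 and 10.80 in silenced cells overlapped (change 0.13, limma adjusted p = 0.916).

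**Figure D3:**
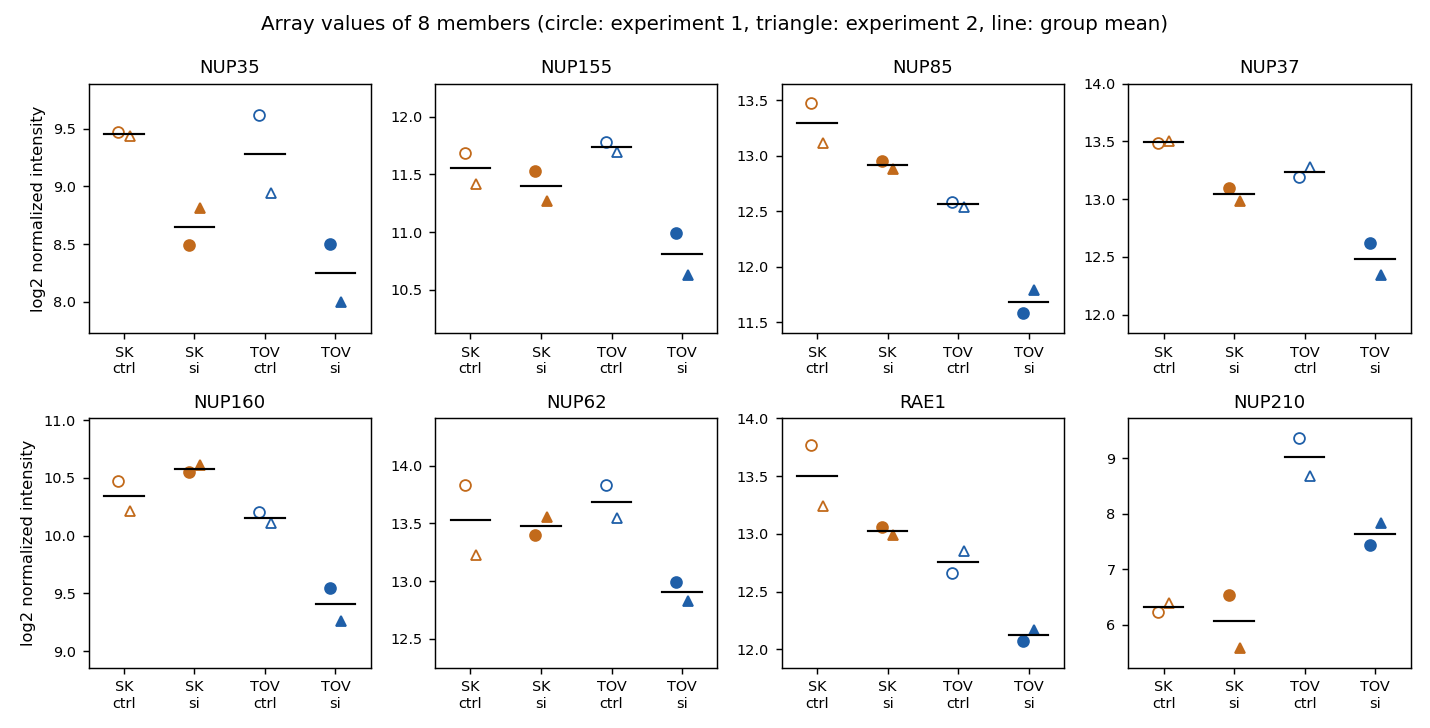
Log2 normalized intensity (vertical axis, a separate range for each gene) of 8 members on each array, with circles for experiment 1, triangles for experiment 2, open symbols for control siRNA, filled symbols for CSE1L siRNA and a line at each group mean. The 8 are the members with an unadjusted limma p under 0.05 in TOV-21G. That all 8 have both silenced arrays below both controls there therefore follows largely from the choice. Over all tested members 17 of 26 did, against 24.8% of all genes. In SK-OV-3, NUP160 has both silenced arrays above both controls, and the NUP210 points were undetected.

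On the cytoplasmic face, where export complexes are taken apart, the 6 tested members had a median change of -0.50 in TOV-21G and -0.36 in SK-OV-3. In each line 4 of 6 were below 0, and 4 of 6 lay below both controls, where 24.8% of all genes did in TOV-21G and 21.2% in SK-OV-3. None was called in either line, where 3.17% of all genes were in TOV-21G and 0.0107% in SK-OV-3. RAE1, NUP214 and NUP88 were among those 4 in both lines.

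RAE1, the mRNA export factor that docks at NUP98, measured 12.66 and 12.85 in TOV-21G control and 12.07 and 12.17 in silenced cells. SK-OV-3 gave 13.77 and 13.24 against 13.06 and 12.99. Silenced cells were the lower ones in each line, without overlap. The change was -0.63 in TOV-21G (SE 0.24, 95% interval -1.18 to -0.08, limma adjusted p = 0.195) and -0.48 in SK-OV-3 (SE 0.24, 95% interval -1.03 to 0.07, limma adjusted p = 0.552).

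NUP214, the docking platform of the export helicase, measured 11.31 and 11.37 against 10.92 and 10.91 in TOV-21G and 11.51 and 11.46 against 11.27 and 10.95 in SK-OV-3. The groups did not overlap in either line, and replicates were close except for the silenced SK-OV-3 arrays. Its changes were -0.42 (95% interval -0.89 to 0.05, limma adjusted p = 0.307) and -0.38 (95% interval -0.85 to 0.09, limma adjusted p = 0.593). Its partner NUP88 measured 10.56 and 10.68 against 10.41 and 9.37 in TOV-21G, so that experiment 2 made up nearly all of the change of -0.73 (SE 0.32, limma adjusted p = 0.261). By experiment the TOV-21G change of NUP88 was -0.15 and -1.31. In SK-OV-3, NUP88 measured 10.33 and 10.40 against 10.01 and 9.90 (change -0.41, limma adjusted p = 0.752).

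NUP98, the repeat nucleoporin that binds RAE1 and is found on both faces of the pore, measured 8.17 and 8.82 in TOV-21G control and 8.11 and 7.71 in silenced cells. As for NUP88, experiment 2 carried the change, with -0.06 in experiment 1 and -1.11 in experiment 2 (fitted change -0.59, 95% interval -1.43 to 0.26, limma adjusted p = 0.432). In SK-OV-3 it measured 9.72 and 8.75 against 9.20 and 9.32 (change 0.03, 95% interval -0.82 to 0.87, limma adjusted p = 0.988), which was -0.46 without SK-OV-3 control replicate 2.

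NUP42, which binds the helicase activator GLE1, followed experiment rather than siRNA in TOV-21G. It measured 8.96 and 9.23 in control and silenced cells of experiment 1, and 7.97 and 7.79 in those of experiment 2. Its changes were 0.04 in TOV-21G and 0.03 in SK-OV-3, with a 95% interval of -1.10 to 1.19 in TOV-21G. AAAS (aladin), which binds NDC1, measured 6.53 and 7.12 against 7.10 and 6.69 in TOV-21G and 7.74 and 7.5 against 7.33 and 7.23 in SK-OV-3. It overlapped in TOV-21G and was lower after silencing in SK-OV-3 (change -0.34, limma adjusted p = 0.753).

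The nuclear basket had a median of -0.04 in TOV-21G, the nearest to 0 of the subcomplexes there. In SK-OV-3 its median was 0.03, while that of the central channel was -0.05 and NXT1 stood at 0.07. For 0 of its 3 tested members did control and silenced arrays separate in either line. TPR, the filament protein of the basket, measured 12.84 and 13.24 against 12.92 and 12.86 in TOV-21G (change -0.15, 95% interval -0.64 to 0.35). NUP153, the basket's docking site for transport receptors, measured 11.19 and 10.84 against 10.93 and 11.03 (change -0.04, 95% interval -0.57 to 0.50). Both intervals include -0.43, the median over the members.

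NUP50, a cofactor that helps release cargo from importin alpha and so works in the same cycle as CSE1L, had probes that disagreed. The probe used, detected on all 8 arrays, gave a TOV-21G change of 0.34 (95% interval -0.69 to 1.36, limma adjusted p = 0.742). A dimmer probe, detected on 5 arrays, gave -1.21 (limma adjusted p = 0.065 over all detected probes). It was detected on both TOV-21G control arrays and on 0 TOV-21G silenced arrays, so the size of that change was not measured. The remaining probe, detected on 2 arrays, gave -0.14. The sign of the NUP50 estimate thus depended on the probe, and the dimmer probes lay near background.

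Of the export receptor pair only NXT1, the small cofactor of NXF1, could be measured. It measured 11.98 and 12 in TOV-21G control and 11.67 and 11.71 in silenced cells, which do not overlap (change -0.30, SE 0.31, 95% interval -1.02 to 0.42, limma adjusted p = 0.665). In SK-OV-3 it measured 12.62 and 11.63 against 12.23 and 12.17, with the control arrays on either side of the silenced ones (change 0.07, 95% interval -0.65 to 0.80, limma adjusted p = 0.959). Without SK-OV-3 control replicate 2 that change was -0.42.

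Besides NUP50, 5 members had more than 1 detected probe. In TOV-21G the other probe went the same way for NUP155 (-0.92 and -0.79), RAE1 (-0.63 and -1.09), SEH1L (-0.17 and -0.50) and AHCTF1 (0.02 and 0.25). The 3 NUP98 probes gave -0.59, -0.57 and -0.24. In SK-OV-3 the NUP98 probes gave 0.03, 0.07 and -0.63, the AHCTF1 probes -0.28 and 0.12, and the NUP155 probes -0.15 and 0.07, so the sign of these 3 genes there depended on the probe.

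Averaged over the lines, the members had a median change of -0.26, beside -0.01 over all genes, and 21 of 26 were below 0, against 51% of all genes. No member was called by limma, against 2.14% of all genes, and 8 had an unadjusted p under 0.05 in the lower direction, against 10.7%. The smallest adjusted p-values were those of NUP35 (mean change -0.92, SE 0.21, limma adjusted p = 0.0663), NUP37 (-0.61, SE 0.14, 0.0723) and NUP85 (-0.62, SE 0.15, 0.0768). With the replicate block NUP35 passed in the mean (limma adjusted p = 0.0369), where 5.52% of all genes did. NUP155 (-0.54, SE 0.16) and RAE1 (-0.55, SE 0.17) followed, both with a limma adjusted p of 0.119. NUP210 is not placed in this order, since its SK-OV-3 values were below detection. For 8 members both silenced arrays lay below both controls in each line, where 8.19% of all genes did. They were NUP35, NUP37, NUP85, NUP133, NUP93, RAE1, NUP214 and NUP88, from the scaffold and the cytoplasmic face, and 0 members lay above both controls in each line, where 8.07% of genes did.

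The difference between the lines (TOV-21G change minus SK-OV-3 change) had a median of -0.30 over the members, beside 0.01 over all genes, and 22 of 26 were below 0, against 49.3% of all genes. No member passed by limma, with or without the replicate block, and 0% of genes did; 2 members had an unadjusted p under 0.05 in the lower direction, against 5.83% of all genes. These were NUP160 (-0.99, SE 0.30, 95% interval -1.69 to -0.29, limma adjusted p = 0.325) and NUP155 (-0.77, SE 0.32, 95% interval -1.52 to -0.02, limma adjusted p = 0.479). Leaving NUP210 aside for the same reason, next came NUP62 (-0.73, SE 0.36, limma adjusted p = 0.546), NUP85 (-0.49, SE 0.30, limma adjusted p = 0.642) and NDC1 (-0.56, SE 0.37, limma adjusted p = 0.663). A lower response of the pore genes in TOV-21G than in SK-OV-3 was therefore not shown for any single member.

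Control cells of the lines were also compared, and this comparison shares its control arrays with the silencing comparisons above. Of the 26 members, 4 passed, against 33.8% of all genes: 3 lower in TOV-21G, against 16.7%, and 1 higher, against 17.1%. The median difference was -0.16, beside -0.07 over all genes, and 16 of 26 were below 0, against 54%; without SK-OV-3 control replicate 1 it was -0.09. Lines did not overlap for 10 members that were lower in TOV-21G, against 36.9% of all genes, and for 6 that were higher, against 31.6%. The share of members called was thus under the background, and the share without overlap was close to it or under it.

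NUP210 was detected on both TOV-21G control arrays, at 9.36 and 8.68, and on neither SK-OV-3 control array, where its values of 6.23 and 6.40 were not well above background. It was at least 5.04-fold higher in TOV-21G, as the mean of 9.02 against a mean of 6.68 for the lowest detected signal on the SK-OV-3 arrays (measured mean 6.32, limma adjusted p = 0.000923). NUP210 had passed the detection filter only through TOV-21G, so that it had to differ.

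The 3 members lower in TOV-21G passed by less. SEH1L measured 11.73 and 11.86 in SK-OV-3 and 10.86 and 10.95 in TOV-21G control cells, a difference of -0.89 (SE 0.24, 95% interval -1.44 to -0.33, limma adjusted p = 0.0242). NUP85 measured 13.47 and 13.11 against 12.58 and 12.54 (-0.73, SE 0.21, 95% interval -1.23 to -0.23, limma adjusted p = 0.0325). RAE1 measured 13.77 and 13.24 against 12.66 and 12.85 (-0.75, SE 0.24, 95% interval -1.30 to -0.21, limma adjusted p = 0.0413). In each case both TOV-21G arrays lay below both SK-OV-3 arrays.

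These 3 calls were lost in several fits with 1 array left out, and those of SEH1L and RAE1 were not shared by their further probes. Fits without an SK-OV-3 array or a TOV-21G control array also called a smaller share of all genes. A lost call therefore does not single out the array left out. For SEH1L the limma adjusted p was 0.0678 and 0.102 when SK-OV-3 control replicate 1 or 2 was left out, and 0.106 and 0.0794 when TOV-21G control replicate 1 or 2 was left out. For NUP85 it was 0.146 with SK-OV-3 control replicate 1 left out, 0.110 and 0.127 with TOV-21G control replicate 1 or 2, and 0.0543 and 0.0542 with SK-OV-3 silenced replicate 1 or 2. RAE1 kept its call in 1 such fit, the one that left out SK-OV-3 control replicate 2 (0.0261), and its difference was -0.49 in the fit that left out SK-OV-3 control replicate 1. A further SEH1L probe gave a difference of 0.04 (limma adjusted p = 0.915 over all detected probes) and a further RAE1 probe gave -0.17 (0.684), so the line difference of these genes was seen with 1 of their detected probes.

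AAAS (-0.79, SE 0.27, 95% interval -1.41 to -0.18, limma adjusted p = 0.0528) and NUP93 (-0.55, SE 0.20, 95% interval -1.03 to -0.08, limma adjusted p = 0.0714) came next, both with TOV-21G below SK-OV-3 on every control array. NUP98 (-0.74, limma adjusted p = 0.156) overlapped between the lines. NXT1 differed by -0.14 (95% interval -0.86 to 0.59, limma adjusted p = 0.777). NUP85 and RAE1 started lower in TOV-21G and lay lower still after silencing, but only their line difference passed.

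**Figure D4:**
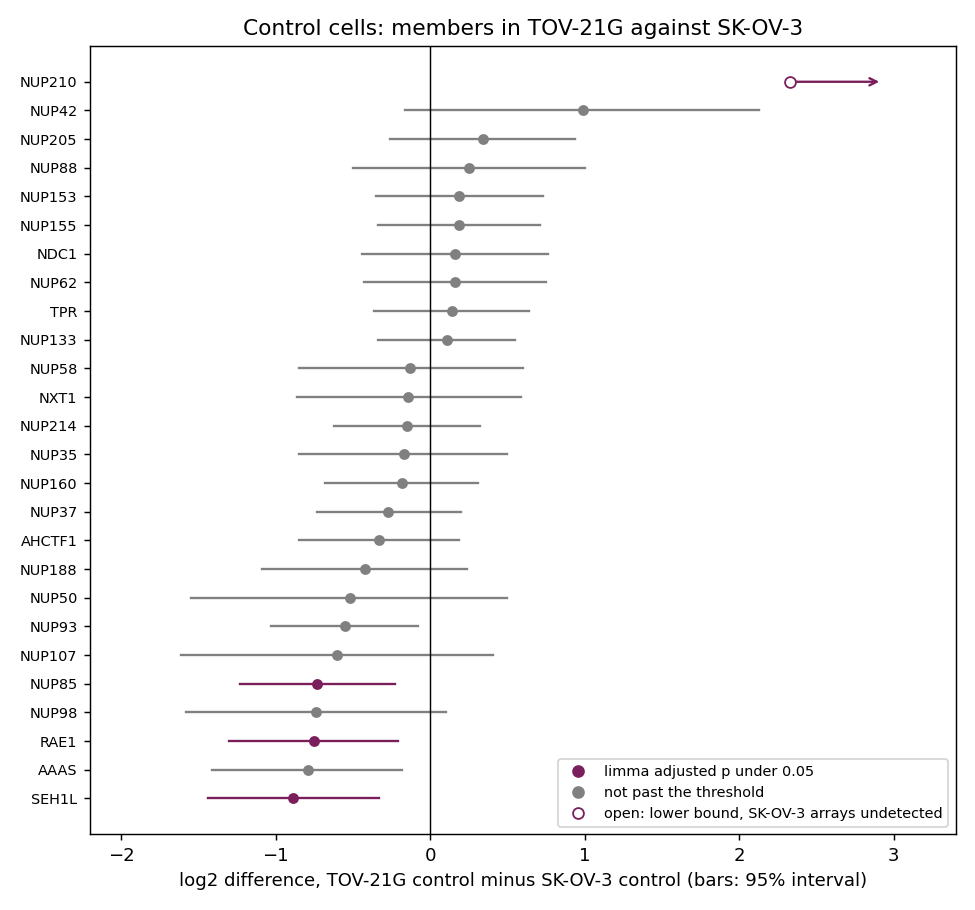
Log2 difference between control cells, TOV-21G minus SK-OV-3 (horizontal axis), for the 26 tested members, with bars of the 95% interval of the fit (n = 2 arrays per line) for all but NUP210, and purple for a limma adjusted p under 0.05. The open symbol with an arrow is NUP210, drawn at its lower bound of 2.33 because its SK-OV-3 arrays were below detection, and SEH1L, RAE1 and NUP85 are the purple points left of 0.

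The genes around the pore were counted from lists of the mRNA export machinery, the nuclear lamina and the Ran cycle. In TOV-21G the mRNA export and TREX list (25 genes, 19 tested), some of whose products package mRNA for NXF1, had a median change of -0.28. Of the 19 tested, 17 were below 0, against 49.5% of all genes, and 1 was called, against 3.17%. That gene was THOC6, a TREX subunit, at 11.87 and 11.89 in control and 10.66 and 10.57 in silenced cells (change -1.27, SE 0.20, limma adjusted p = 0.0257). Its arrays separated clearly, yet without TOV-21G control replicate 1 the adjusted p was 0.162, and without control replicate 2, silenced replicate 1 and silenced replicate 2 it was 0.114, 0.061 and 0.112. THOC3 (-0.69, limma adjusted p = 0.123), CHTOP (-0.68, 0.144) and ALYREF (-1.04, 0.244), the adaptor that hands mRNA to NXF1, did not pass. In SK-OV-3 the same list had a median of 0.03, with 6 of 19 below 0, against 51% of all genes. There 0 were called, where 0.0107% of all genes were. THOC6 went the other way in SK-OV-3, at 12.57 and 12.40 in control and 13.04 and 12.81 in silenced cells. Its change was 0.44 (limma adjusted p = 0.524), without overlap, where 21.1% of all genes lay above both controls.

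Of 16 lamina and envelope genes, 14 were tested. Their TOV-21G median was -0.08, with 8 of 14 below 0 and 1 called, beside 49.5% and 3.17% of all genes. TMPO, which encodes the lamina-associated LAP2 proteins, measured 10.20 and 9.83 in control and 8.79 and 7.88 in silenced cells (change -1.68, SE 0.31, limma adjusted p = 0.0332). Its adjusted p was 0.0631 to 0.197 when any array other than TOV-21G silenced replicate 1 was left out. LMNA, which encodes lamins A and C, had a change of 0.89 (limma adjusted p = 0.0994). Of 10 genes of the Ran cycle, CSE1L among them, 9 were tested, with a median of -0.19 and 6 of 9 below 0, beside 49.5% of all genes. The only one called was CSE1L, the target of the siRNA, so no other gene of this list was, where 3.17% of all genes were. The Ran exchange factor RCC1 had a change of -0.77 (limma adjusted p = 0.195). In SK-OV-3 these lists had medians of -0.05 and -0.18 and 0 called, where 0.0107% of all genes were.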

How the data were processed

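Expression was measured on 8 Illumina arrays of 2 cell lines. Per the file headers, the deposited table held non-normalized signal intensity with a detection p-value for each probe and array. BeadStudio 2 had read them, per the submitters' processing notes. The authors also deposited a table of their own normalized intensity; how it was normalized is not given in the sources used here. No genome build was needed for the values.

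From these, background was removed by normexp (offset 16, with the negative control level taken from the detection p-values), then quantile normalization and log2 were applied with limma 3.58.1 in R 4.3.3. Probes with a detection p under 0.01 on at least 2 arrays were kept (10888 of 24531), and the brightest kept probe stood for its gene, which left 8373 named genes and 1004 unnamed probes. The limma model had 4 group means, and its degrees of freedom were 4 residual plus 3.87 prior. Each array of a pair of experiments counts as 1 sample, and the number of arrays limits the precision. A probe undetected on both arrays of a group has only a bound there, set by the lowest detected signal of those arrays.

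The members, the surrounding lists and the rule for named genes were chosen with earlier results of these data known. The rule gave full values to CSE1L, NXT1, NUP98 and RAE1, to the 6 members with the smallest p in each comparison and to members with several detected probes. Genes of surrounding lists were limited to 4 each. Gene symbols came from the platform annotation, in which 21838 probes carried 1 symbol and 2693 none. The main model did not use experiment numbers, so its p-values ignore any pairing. Experiment numbers were taken as a pairing within a line only for the replicate block and the changes by experiment. Same-numbered deviations correlated at 0.126 in SK-OV-3, which is weak, at 0.561 in TOV-21G and at -0.236 between the lines. The pairing rests on 1 correlation per line, so it is not certain. Alternatives were no background correction, median scaling, a replicate block, each array left out, an offset of 50, the authors' values, no detection filter, detection on all 8 arrays, all probes, the mean of detected probes, an adjusted p of 0.01, limma with trend and robust spread, and the arrays of 1 comparison alone. The count of members without overlap, and CDH1, were recomputed under them after the data had been seen. Promoter motifs were searched as exact letters on both strands. The NRF1 core replaced a longer form of the site after the shares of that form had been seen; the longer form was in as many member promoters and in a smaller share of all promoters. The pipeline was tested on simulated data. Plots used Python 3.11.15 with matplotlib 3.10.9.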

Additional observations from a re-analysis of the deposited data

Results flagged for a closer look

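NUP160 was flagged because its silenced arrays lay above both controls in SK-OV-3 (10.55 and 10.61 against 10.47 and 10.21) and below both controls in TOV-21G (9.55 and 9.26 against 10.20 and 10.11). The difference between the changes, TOV-21G minus SK-OV-3, was -0.99 on the log2 scale (limma adjusted p = 0.325), so the test of the difference did not pass. This pattern was seen in 1 of 26 members and in 2.74% of all 9377 tested, so the count was close to the background. THOC6 and POLDIP3 of the mRNA export list showed it too.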

How the results depend on the processing

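With experiment number as a replicate block within each line, limma called 2 members in TOV-21G and 1 (NUP35) in the mean of both lines, against 6.29% and 5.52% of all genes, and 0 in SK-OV-3 and in the difference; no such fit was made for the control cells, whose blocks lie within a line. Median scaling moved the median of all genes to -0.15 in SK-OV-3, from -0.01, and to -0.05 in TOV-21G, from 0. Members then had medians of -0.34 in SK-OV-3, -0.51 in TOV-21G, -0.40 in the mean, -0.17 in the difference, or -0.19, -0.46, -0.29 and -0.27 relative to all genes. It called 1 member in TOV-21G, 1 in the mean and 1 between control cells, against 3.17%, 2.04% and 29.6% of all genes, and turned the TOV-21G calls over all genes from 102 higher and 195 lower to 67 and 230. Members called in TOV-21G and in the mean were 4 and 3 without background correction, 1 and 1 with an offset of 50, 2 and 3 with the authors' values, 2 and 3 with detection on all 8 arrays, and 3 and 4 with trend and robust spread; over all genes the called share was 5.62%, 4.5%, 4.47%, 5.19% and 5.49% in TOV-21G and 4.95%, 3.17%, 4.15%, 5.78% and 4.92% in the mean. The members called in TOV-21G under at least 1 alternative were NUP155, NUP210, NUP85, NUP37 and NUP35, all lower. Between control cells 2 members were called with the mean of detected probes, 2 with only the 4 control arrays and 1 at an adjusted p of 0.01, against 33.8%, 31.8% and 20% of all genes; the authors' values gave a median of -0.08 there, and no detection filter gave -0.23 in the difference. SK-OV-3 changes turned negative for NXT1 (-0.42 without control replicate 2, against 0.57 without control replicate 1, -0.10 with median scaling) and NUP98 (-0.46 without control replicate 2, against 0.51 without control replicate 1, -0.03 without silenced replicate 2, -0.16 with median scaling, -0.18 with the mean of probes). The causes were not tested.

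Leaving out 1 array at a time, where the lone array of a group is assumed to vary like the others, gave medians between -0.28 and -0.10 in SK-OV-3, between -0.48 and -0.37 in TOV-21G, -0.32 to -0.18 in the mean, -0.38 to -0.22 in the difference and -0.19 to -0.09 between control cells. With an array of the other line left out, 10 members in SK-OV-3 and 17 in TOV-21G lay below both controls, as with all arrays. Leaving out an array of the same line set 2 arrays against 1, where groups separate more easily. The counts were then 13 to 15 in SK-OV-3 and 18 to 20 in TOV-21G. The share of all genes was not computed for those fits, so nothing is drawn from the rise. Slides are not given in the sources used here, so no block for them was run. With the 4 TOV-21G arrays alone, 0 members and 0% of all genes were called, and CSE1L, TOP2A, THOC6 and TMPO had adjusted p-values of 0.0968, 0.0968, 0.0968 and 0.13. The 4 members below detection have no estimate.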

Other observations

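The members below detection had raw signals of 126.1 to 180.9 (NUP43), 169.3 to 245.1 (NUP54), 135.5 to 216.1 (POM121) and 101.0 to 157.6 (RANBP2) over the 8 arrays, where array medians were 156 to 202. Being undetected by 1 probe does not show that a gene was silent.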
